A study of Danio rerio with 10 samples.

Results

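The genes described here are 7 genes of myelin and glia: mbpa, mpz, plp1a and plp1b, whose proteins build the myelin sheath, olig2 and sox10, transcription factors of the cells that make it, and gfap, an intermediate filament gene of radial glia and astrocyte-like cells. They were chosen by name, through probe sets (groups of probes for 1 transcript) to which the platform annotation gives exactly 1 gene symbol. 4 of the 7, mbpa, olig2, sox10 and gfap, had such a probe set, 1 each, among 10795 probe sets with 1 symbol, which stand for 8793 genes. The annotation used here lists no probe set for mpz, plp1a or plp1b, so these were not analysed, and mbpa was the single measured member that encodes a myelin protein. All 4 probe sets passed a filter on low signals that kept 11626 of 15502.

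Signals came from 10 Affymetrix zebrafish arrays, each hybridised with RNA from 1 pool of whole embryos. The fish were of the earl grey (egy) genotype, allele cz3, on an AB/WIK strain background. Embryos from matings of heterozygotes were sorted by their appearance into egy mutants and normal-looking siblings, with 3 mutant and 3 sibling pools on day 5 after fertilization, and 2 mutant and 2 sibling pools on day 3. The defect is recessive, in the gene orthologous to human p110 (sart3 in zebrafish), and by day 8 leads to small heads and eyes, so sibling pools may hold heterozygotes. The study asked how the defect shows in transcript levels. Every pool holds whole animals, so fewer cells of a type and less RNA per cell cannot be told apart in any value below.

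The sart3 signal was 104.9, 132 and 809.3 in mutant replicates 1, 2 and 3 of day 5, against 1771.4 to 2585.9 in their siblings. Replicate 3, the highest, is 1 of the arrays with a day 4 source name described below. On day 3 the signal lay at 462.2 to 648.4 in the mutant pools, against 2516.5 to 2525.7 in their siblings. The day 3 difference in sart3 did not pass the test used here (adjusted p = 0.0831). 3 kinds of label go against the titles that set the groups. The strain label of sibling replicate 2 of day 3 says mutant, while its signals had a Spearman correlation of 0.983 with the other day 3 sibling pool and of at most 0.97 with a mutant pool. The description of every sample, mutants included, speaks of wild-type embryos. The source names of mutant replicate 3 and sibling replicate 2 of day 5 say day 4, and the series' design text also gives 4 days for the later time. These 2 arrays correlated at 0.96 and 0.98 with their closest partner of day 5 and at most at 0.929 and 0.947 with an array of their kind on day 3. No title gives day 4, so these correlations cannot tell day 4 from day 5 for these arrays. Calls on named genes that end when these arrays are left out are marked as such below.

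Myelin is the layered membrane that oligodendrocytes wrap around axons in the brain and spinal cord and Schwann cells wrap around axons in peripheral nerves. Sox10 is needed in the neural crest for Schwann cells and pigment cells and in oligodendrocytes for the expression of myelin genes. Olig2 specifies motor neurons and then oligodendrocyte precursors in the ventral spinal cord. Myelin basic protein holds the inner faces of the membrane together, and in zebrafish its transcripts appear in the first days after fertilization and increase as axons are wrapped.

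mbpa was lower in mutants on both days. Its signal on day 5 was 950.6, 772.6 and 762.4 in the 3 mutant pools, against 2793.3, 2045.2 and 1854.3 in the 3 sibling pools. On day 3 it was 892.5 and 844.5 in mutants, against 1650.4 and 1580.3 in siblings. All 5 mutant pools lay below all 5 sibling pools.

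The mean mbpa signal on day 5 was 829 ± 106 (SD, n = 3) in mutants and 2231 ± 496 (SD, n = 3) in siblings, so mutants had 37.1% of the sibling level. The log2 difference of signal + 65 was −1.35 ± 0.15 (SE; limma, Benjamini-Hochberg adjusted p = 8.35e-05), a 2.54-fold lower value. On day 3 the means were 869 ± 33.9 (SD, n = 2) in mutants and 1615 ± 49.6 (SD, n = 2) in siblings, or 53.8% of the sibling level, with a log2 difference of −0.85 ± 0.19 (adjusted p = 0.036). Averaged over the days the difference was −1.10 ± 0.12 (adjusted p = 6.13e-05). In the order of change from the largest fall, the mbpa probe set stood at place 124 of 11626 on day 5 and at place 136 on day 3.

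mbpa was the 1 member of 4 that passed the threshold (adjusted p of 0.05) in these comparisons. Over the whole array, 14.6% of probe sets passed on day 5 (6.49% as higher and 8.15% as lower), 2.06% on day 3 (1.18% as higher and 0.886% as lower) and 16.5% averaged over the days (6.97% as higher and 9.51% as lower). The day 5 and the averaged calls were kept in all 23 and all 22 other settings tried. The day 3 call was less secure and was kept in 15 of 23. It ended without sibling replicate 2 of day 5 (adjusted p = 0.0606). It also ended with each array centred on its median (0.0508) and without a mean-variance trend (0.0608). Without any 1 of the 4 pools of day 3, which leaves 1 pool in a group, it ended too. So it did when the strain label of sibling replicate 2 of day 3 was followed. Following that label leaves 1 sibling pool on day 3, and gpm6bb, snap25b and gad1b lost their day 3 calls there as well. That loss is therefore not particular to mbpa.

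**Figure D1:**
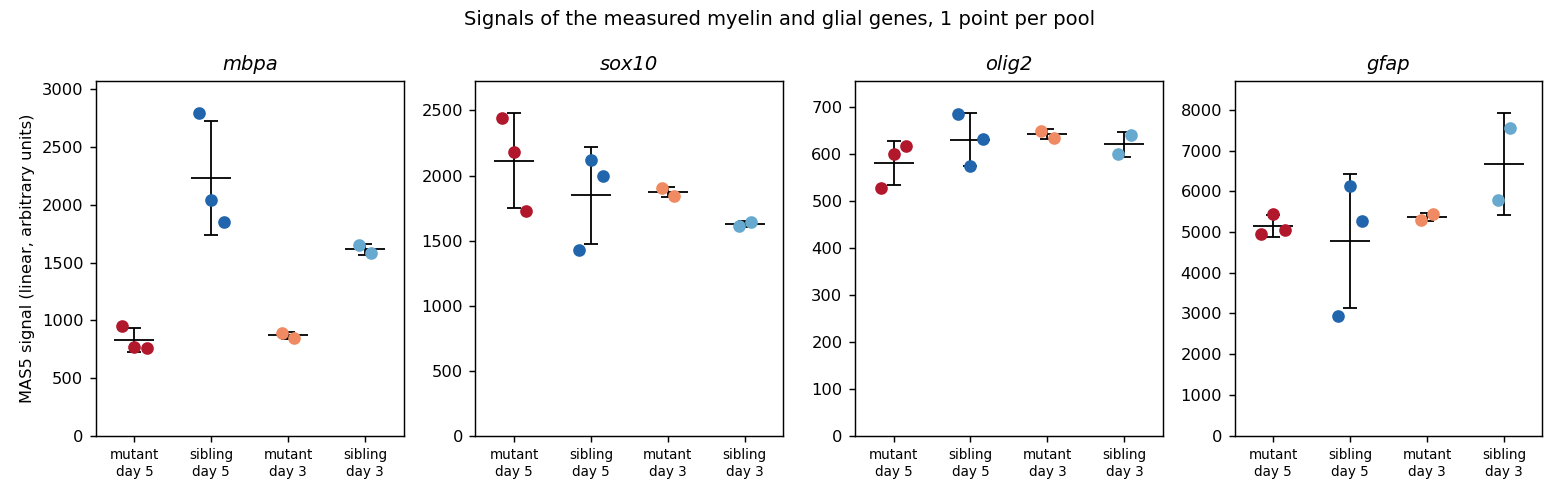
Signal (linear MAS5 units, vertical axes from 0) of mbpa, sox10, olig2 and gfap in each pool, for mutants and siblings of day 5 and of day 3. Points are pools, and black bars are the mean and SD (n = 3 on day 5, n = 2 on day 3). The mbpa signal of the 5 mutant pools lies between 762.4 and 950.6, below the lowest sibling pool at 1580.3, while mutant and sibling pools of day 5 overlap for the other 3 genes.

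The next question was whether mbpa had increased between the days as myelin formation begins. In siblings the 3 pools of day 5 (1854.3 to 2793.3) lay above both pools of day 3 (1580.3 and 1650.4), and the ratio of the means was 1.38. The log2 difference of day 5 over day 3 in siblings was 0.43 ± 0.17, with a 95% interval from 0.06 to 0.80, and it did not pass the threshold (adjusted p = 0.0973). It did with array weights (0.38, adjusted p = 0.046). Leaving out the highest pool, sibling replicate 1 of day 5, gave 0.26 (adjusted p = 0.30). In mutants the pools of day 5 (762.4 to 950.6) overlapped those of day 3 (844.5 and 892.5), and the log2 difference was −0.07 ± 0.17, with an interval from −0.44 to 0.30 (adjusted p = 0.815). The mutant pools of day 5 had 0.513 times the mean mbpa signal of siblings of day 3.

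No member passed between the days, in siblings or in mutants, where 18.5% and 19% of all probe sets passed. At an unadjusted p of 0.05 in limma, 2 of the 4 were under the threshold in siblings, mbpa and gfap, and 0 in mutants. Over all probe sets, 33.2% were under it in siblings and 32.9% in mutants. Whether the mutant difference itself changed between the days was tested as an interaction. For mbpa the mutant difference on day 5 minus that on day 3 was −0.50 ± 0.24 (unadjusted p = 0.0586 in limma, adjusted p = 0.744), so a shortfall that grew was not shown. It was −0.33 without sibling replicate 1 of day 5 and −0.74 with the strain label of sibling replicate 2 of day 3 followed. Of all 11626 probe sets 0 (0%) passed this test by limma and 771 had an unadjusted p under 0.05, none of them a member.

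sox10 did not pass in any comparison. Its signal on day 5 was 2443.2, 2177.1 and 1724.4 in mutants, against 1424.5, 2122.7 and 1995.7 in siblings, with overlap between the groups. On day 3 it was 1900.4 and 1844.3 in mutants, against 1610.6 and 1640.9 in siblings. The groups do not overlap there, but 2 pools against 2 can separate without any difference. The share of all probe sets that do so is not given here. The log2 differences were 0.19 ± 0.16 on day 5 (adjusted p = 0.458) and 0.20 ± 0.19 on day 3 (adjusted p = 0.714), both with mutants at the higher mean. Their 95% intervals ran from −0.15 to 0.54 on day 5 and from −0.22 to 0.62 on day 3. Without the 2 arrays whose source names say day 4, the day 5 difference was 0.44 (adjusted p = 0.114), and without sibling replicate 1, the lowest pool, it was 0.024 (adjusted p = 0.941).

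olig2 did not pass in any comparison either. On day 5 its signal was 527.3, 598.3 and 615.7 in mutants, against 684.8, 572.5 and 631.1 in siblings. On day 3 it was 649 and 633.3 in mutants, against 600.1 and 638.7 in siblings. Groups overlapped on both days, and the log2 differences of −0.11 ± 0.13 on day 5 (interval −0.39 to 0.18, adjusted p = 0.653) and 0.05 ± 0.16 on day 3 (interval −0.30 to 0.40, adjusted p = 0.937) did not pass. Between the days it differed by 0.02 ± 0.15 in siblings and by −0.13 ± 0.15 in mutants, also without a call, although both mutant pools of day 3 lay above the 3 of day 5.

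gfap varied more between sibling pools than between mutant pools. On day 5 its signal was 4949.8, 5446.9 and 5055.3 in mutants, against 2937.8, 6118.9 and 5263.5 in siblings. On day 3 it was 5302.8 and 5430 in mutants, against 5791.6 and 7549.5 in siblings. The groups do not overlap there, again with only 2 pools a side, which can separate without any difference. The log2 difference was 0.17 ± 0.21 on day 5 (interval −0.28 to 0.62, adjusted p = 0.637) and −0.30 ± 0.25 on day 3 (interval −0.85 to 0.25, adjusted p = 0.656). Its day 5 sign rests on sibling replicate 1, without which the difference was −0.14. Between the days gfap differed by −0.53 ± 0.23 in siblings (adjusted p = 0.133), and single pools moved this value. Leaving out sibling replicate 1 of day 5 gave −0.22 (adjusted p = 0.341), leaving out sibling replicate 2 of day 3 gave −0.34 (adjusted p = 0.565), and leaving out sibling replicate 2 of day 5 gave −0.74, which passed (adjusted p = 0.048). In mutants gfap differed by −0.06 ± 0.23 (adjusted p = 0.886).

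The 95% interval of the mbpa difference on day 5 (−1.68 to −1.02) shared no value with those of sox10, olig2 and gfap. On day 3 the mbpa interval (−1.25 to −0.45) shared values with that of gfap and none with those of sox10 and olig2. The difference between 1 gene's change and another's was not tested.

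**Figure D2:**
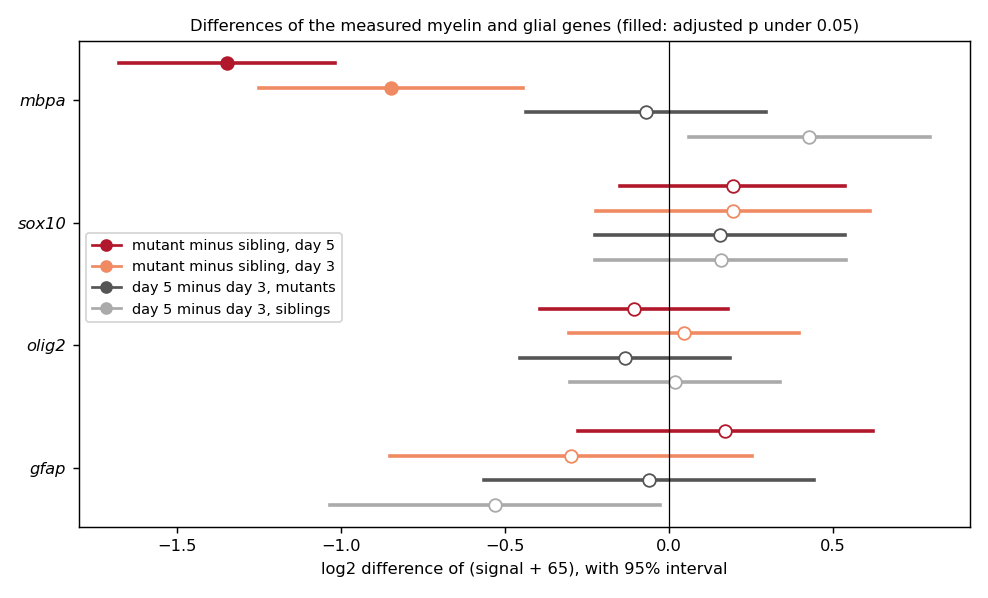
Log2 differences of signal + 65 (horizontal axis) with 95% intervals for mbpa, sox10, olig2 and gfap, for mutant minus sibling on each day and for day 5 minus day 3 in mutants and in siblings. Filled points passed an adjusted p of 0.05: mbpa alone does, at −1.35 on day 5 and −0.85 on day 3, and all intervals of sox10 and olig2 include 0.

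The pattern of each member over the 10 arrays was set against that of 7286 other genes, after each gene's log2 values were centred on their own mean. The measure was the root mean square difference, whose median over genes was 0.66 for mbpa. Nearest to mbpa were camk1ga (0.19), a gene of a calcium- and calmodulin-dependent kinase, smtnb (0.20) and grtp1a (0.23). The camk1ga mean signal was 101 in mutants and 466 in siblings on day 5, and 150.5 in mutants and 258 in siblings on day 3, so its mutant means lie under the filter limit of 232 and their size is uncertain. The smtnb mean was 740 in mutants and 1781 in siblings on day 5, and 858 in mutants and 1437 in siblings on day 3. Nearest to sox10 were gcfc2 (0.09), bcat2 (0.11) and nelfb (0.11), and nearest to olig2 were ppp2r1ba (0.06), crygmxl2 (0.07) and foxd3 (0.07). Those nearest to gfap were brd8b (0.14), rnft1 (0.15) and si:ch211-266i6.3 (0.16). The medians over genes were smaller here, at 0.32 for sox10, 0.26 for olig2 and 0.40 for gfap. A link between a member and its nearest genes was not tested.

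Other genes of oligodendrocytes and Schwann cells gave a mixed picture, in which some were lower in mutants and others increased with age in both kinds of embryo. Of 44 such genes listed, 24 were on the array and 20 passed the filter. On day 5, 6 of the 20 fell in mutants and none rose, with a median log2 difference of −0.26, against 8.15% lower calls and a median of −0.01 over all probe sets. On day 3, 1 fell, with a median of −0.07, against 0.886% lower calls and a median of −0.03 over all probe sets. Averaged over the days 7 fell, with a median of −0.09, against 9.51% lower calls and a median of −0.02. The day 5 count of 6 was not secure: it was 3 to 5 with any 1 array left out, 3 with median centring and 3 without both arrays with a day 4 source name. Among the 6 are gpm6bb, which neurons express as well, and gpm6aa of the same family. The count is therefore not one of myelinating glia alone.

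cldnk, a claudin gene expressed in zebrafish myelinating glia, rose between the days in mutants as well as in siblings. Its signal on day 5 was 1770.1, 1477 and 1664.5 in mutants, against 2197.6, 1945.4 and 2166.7 in siblings. On day 3 it was 747.6 and 918.3 in mutants, against 1169.8 and 843.2 in siblings. From day 3 to day 5 it rose in both, by 0.93 ± 0.16 in mutants (adjusted p = 2.33e-03) and by 1.03 ± 0.16 in siblings (adjusted p = 1.54e-03), and both calls were kept in all 22 other settings. Between mutants and siblings the groups of day 5 do not overlap, but the difference of −0.35 ± 0.14 did not pass (adjusted p = 0.118, interval −0.66 to −0.05).

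mbpb, the other zebrafish gene for myelin basic protein, also rose between the days in both kinds of embryo. mbpb signals on day 5 were 3319.5, 3143.5 and 3468.9 in mutants, against 3643.9, 3476.6 and 3445.8 in siblings. Day 3 signals were 2315 and 2574.6 in mutants, against 2799.5 and 2139.1 in siblings. From day 3 to day 5 it rose by 0.43 ± 0.13 in mutants (adjusted p = 0.0316) and by 0.51 ± 0.13 in siblings (adjusted p = 0.0152), calls kept in 14 and 19 of 22 other settings. The call in mutants ended, among others, without replicate 1 or 3 of day 5 or either pool of day 3, with an adjusted p of at most 0.193. That call also ended without both arrays with a day 4 source name (adjusted p = 0.097). The call in siblings ended without replicate 1 of day 5, without replicate 2 of day 3 and with that replicate counted as a mutant, with an adjusted p of at most 0.26. The difference of mutants from siblings was −0.09 ± 0.11 on day 5, with an interval from −0.33 to 0.15 that shares no value with that of mbpa (adjusted p = 0.657).

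cd59a, a gene of the complement inhibitor family of CD59 that the list names cd59, was lower in mutants on day 5. The 3 pools of day 5 had signals of 590.5, 631.1 and 615.9 in mutants, against 1467.8, 1195.4 and 1335.9 in siblings. The 2 pools of day 3 had 503.6 and 378.4 in mutants, against 663.4 and 528.9 in siblings. In siblings it rose by 1.08 ± 0.16 from day 3 to day 5 (adjusted p = 1.45e-03), while the same difference in mutants was 0.43 ± 0.16 and did not pass (adjusted p = 0.0851). It fell in mutants on day 5, by 1.04 ± 0.15 (adjusted p = 4.75e-04). The change of its mutant difference between the days was −0.65 ± 0.23, with an unadjusted p of 0.015 and an adjusted p of 0.602 in limma.

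**Figure D3:**
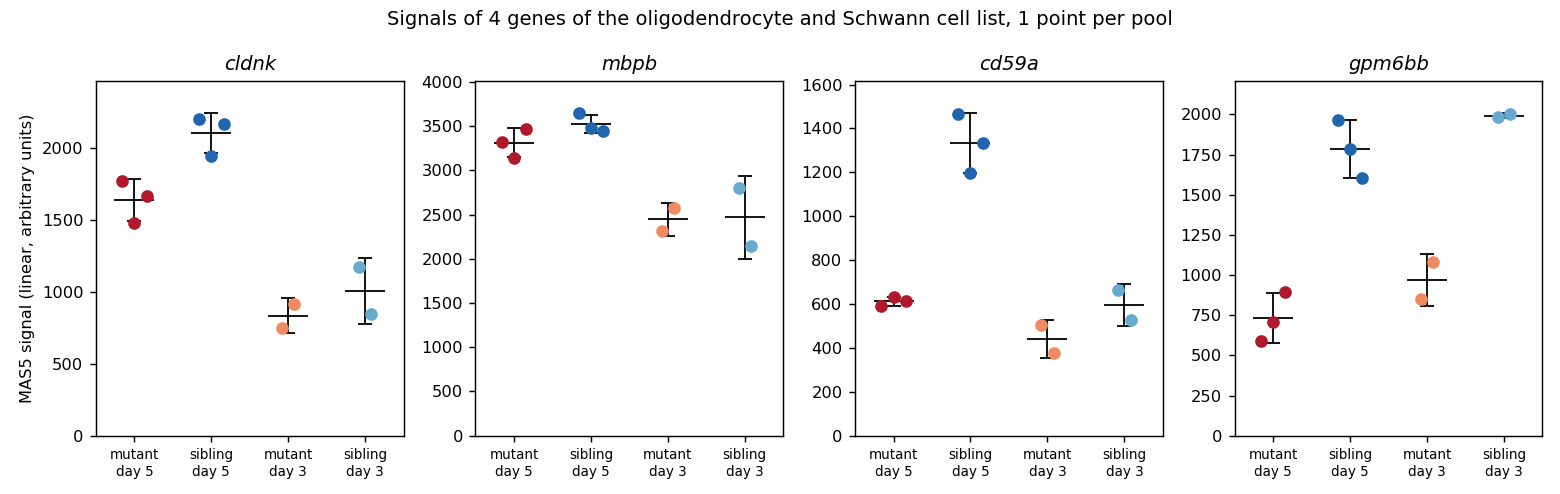
Signal (linear MAS5 units, vertical axes from 0) of cldnk, mbpb, cd59a and gpm6bb in each pool, for mutants and siblings of day 5 and of day 3, with the mean and SD as black bars (n = 3 on day 5, n = 2 on day 3). cldnk and mbpb are higher on day 5 than on day 3 in mutants and in siblings, and cd59a is at most 631.1 in mutants against at least 1195.4 in siblings on day 5.

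The gene of the list with the largest fall on day 5 was gpm6bb, a membrane glycoprotein gene of the proteolipid protein family, which neurons express as well. gpm6bb signals on day 5 were 592.3, 710.1 and 897.6 in mutants, against 1966.3, 1786.4 and 1603 in siblings, a log2 difference of −1.23 ± 0.15 (adjusted p = 1.88e-04). It was lower on day 3 too (−1.004 ± 0.19, adjusted p = 0.0152), with 853.3 and 1081 in mutants, against 1982.5 and 2002.8 in siblings. That call ended without mutant replicate 1 or either sibling pool of day 3, which leaves 1 pool in a group. It also ended with the strain label of sibling replicate 2 followed, a loss shared with mbpa.

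pou3f1, a POU domain factor that drives Schwann cells toward myelination in mice, fell by 0.72 ± 0.12 on day 5 (adjusted p = 2.06e-03), with means of 1423 ± 244 (SD, n = 3) in mutants and 2367 ± 100.2 (SD, n = 3) in siblings. tspan2a, a tetraspanin gene, fell by 0.49 ± 0.15 (adjusted p = 0.0433). This passed in 7 of the 22 other settings and failed when any 1 of 8 arrays was left out. The tspan2a call also ended without both arrays with a day 4 source name (adjusted p = 0.258). The other genes called on day 5 were egr2b (Krox20, a zinc finger factor of the hindbrain and of Schwann cells, −0.49 ± 0.15, adjusted p = 0.0486) and gpm6aa (−0.30 ± 0.08, adjusted p = 0.03), which were picked after their values were seen. With the replicate number as a block, which the day 5 pools allow, both lost their call (adjusted p = 0.0655 for egr2b and 0.0578 for gpm6aa), leaving 4 of the 20. The egr2b call was kept in 4 of 21 other settings and the gpm6aa call in 11 of 22, and both ended without the arrays with a day 4 source name (0.12 and 0.101).

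Between the days, 3 of the 20 rose in siblings (cd59a, cldnk and mbpb) and 2 fell, cd82a (−0.63 ± 0.15) and tspan2a (−0.51 ± 0.16). In mutants 2 rose (cldnk and mbpb) and 5 fell, among them cd82a (−0.81 ± 0.15), pou3f1 (−0.63 ± 0.14) and gpm6ab (−0.48 ± 0.11). Both tetraspanin calls in siblings ended when sibling replicate 2 of day 3 was left out (adjusted p = 0.155 for cd82a and 0.164 for tspan2a). The cd82a call in siblings was kept in 20 of 22 other settings, but that on tspan2a in only 9. The count of 5 lower in mutants was 1 when replicate 1 of day 3 was left out, and 3 when replicate 2 of day 3, replicate 1 of day 5 or both arrays with a day 4 source name were. The counts in siblings stand against 8.39% higher and 10.1% lower calls over all probe sets, those in mutants against 8.57% and 10.4%. The 2 comparisons of days use different pools, and the difference between them is the interaction above.

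Genes of astroglia and radial glia, the group to which gfap belongs, were tested for 17 of 28 listed, gfap aside. On day 5, 5 fell in mutants and none rose, against 8.15% lower and 6.49% higher calls over all probe sets. Their median log2 difference was 0.004, but −0.19 without mutant replicate 3, −0.10 without sibling replicate 1 and −0.12 without both arrays with a day 4 source name. On day 3 none passed by limma in either direction (median −0.11), and averaged over the days, where 9.51% of all probe sets were called lower and 6.97% higher, 4 fell and 1 rose, her6 (0.33 ± 0.09, adjusted p = 0.0312), which passed in 12 of the 21 other settings and failed without both arrays with a day 4 source name (0.0899) and without sibling replicate 2 of day 3 (0.129). With any 1 array left out the day 5 count was 3 to 6.

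The largest fall of the list was in rlbp1a, a retinaldehyde-binding protein gene of the retina. The day 5 count above includes it, but its cell type of expression was not tested here. Its fall is therefore not shown to be one of glia. Its signal on day 5 was 982.2, 970.5 and 650.4 in mutants, against 2911.2, 2545.6 and 2415.8 in siblings, a log2 difference of −1.54 ± 0.16 (adjusted p = 5.4e-05). glula, a glutamine synthetase gene of astroglia and Müller glia, had 10052.7, 8946.2 and 10387.2 in mutants, against 14545.2, 13089.2 and 15929.8 in siblings (−0.56 ± 0.10, adjusted p = 1.83e-03). Both calls were kept in all 22 other settings, and gfap, with overlapping groups on the same arrays, was not called. Other genes of the list had a higher mean in mutants on day 5, without a call. glulb, another glutamine synthetase gene, had 15580 ± 1569 (SD, n = 3) in mutants and 13292 ± 519 in siblings. fabp7a had 21219 ± 2336 in mutants and 17251 ± 2157 in siblings. These 2 genes were picked after their values were seen.

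The progenitor genes sox3 (−0.63 ± 0.15) and her4.2 (−0.80 ± 0.18) fell on day 5 as well, as did sox2 (−0.49 ± 0.13), which was picked after its values were seen. Leaving out sibling replicate 2 of day 5 ended the calls on sox3 (adjusted p = 0.0667) and sox2 (0.076). Leaving out sibling replicate 3 of day 5 ended that on her4.2 (0.0581). The sox3 call also ended without mutant replicate 1 (0.0534) or 2 (0.0532) of day 5. The sox2 call also ended without mutant replicate 1 (0.0674), sibling replicate 1 (0.0641) or sibling replicate 3 (0.0558) of day 5, and with median centring (0.053). The her4 genes are near-identical copies that 1 probe set may not separate, and the her4.2 mean of 153 in mutants lies under the filter limit, so its size is uncertain. Between the days 3 of the 17 rose and 4 fell in mutants (8.57% and 10.4% over all probe sets). In siblings 2 rose and 2 fell (8.39% and 10.1%). her4.2 fell in mutants (−1.29) and siblings (−1.02), rlbp1a (−0.78), sox2 (−0.62) and sox3 (−0.61) in mutants, and fabp7a (−0.57) in siblings. glulb rose in mutants (0.45), a call that ended without both arrays with a day 4 source name (0.057). Of these calls, only that on her4.2 in mutants held with any 1 pool of day 3 left out. vim, the vimentin gene of radial glia, rose between the days by 0.66 ± 0.10 in mutants and by 0.43 ± 0.10 in siblings, and sox9b, a gene of radial glia, by 0.65 ± 0.11 in mutants and by 0.51 ± 0.11 in siblings. The calls in mutants were kept in all 22 other settings, while those in siblings ended without sibling replicate 2 of day 3 (adjusted p = 0.197 for vim and 0.0943 for sox9b).

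**Figure D4:**
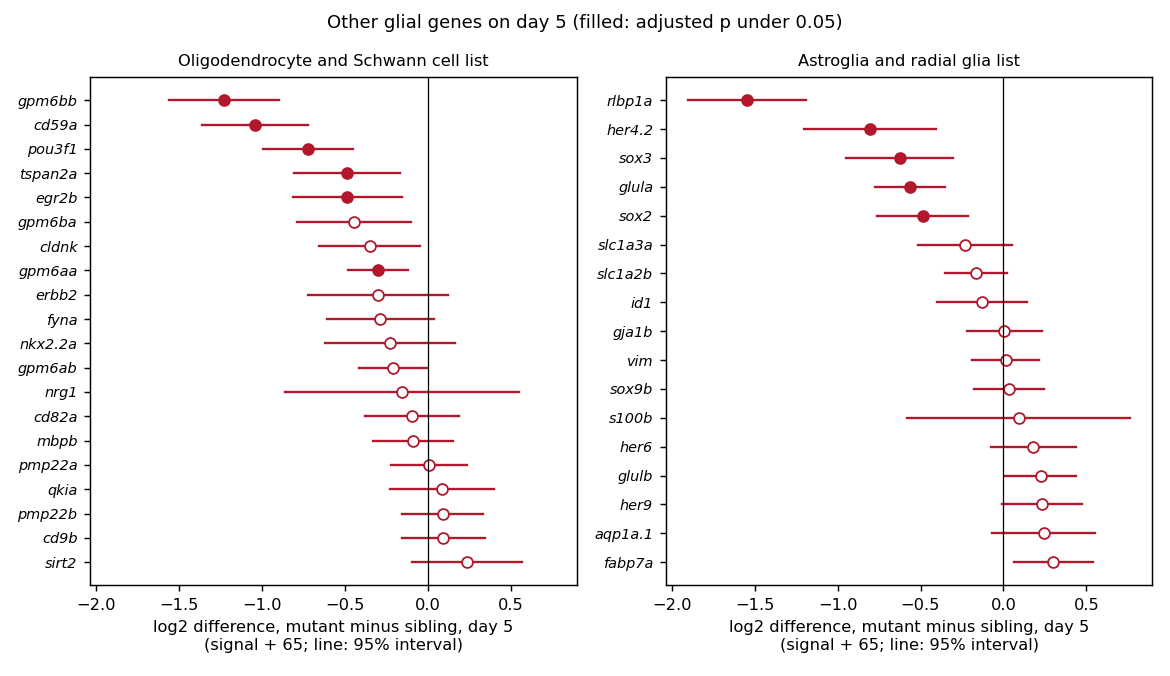
Log2 difference of signal + 65, mutant minus sibling on day 5 (horizontal axis), with 95% intervals, for the tested genes of the oligodendrocyte and Schwann cell list (left) and of the astroglia and radial glia list (right). Filled points passed an adjusted p of 0.05: 6 of 20 on the left and 5 of 17 on the right, all of them lower in mutants.

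Genes of other cell types moved on the same arrays. Of 19 tested neuron genes 8 fell on day 5 and none rose, against 8.15% lower and 6.49% higher calls over all probe sets. Their median log2 difference was −0.39, and the summed signal of the 21 on the array was 119449 to 132074 in mutants, against 160764 to 169482 in siblings. On day 3, where 0.886% of all probe sets were called lower, 2 of them fell, but 0 passed by limma without either sibling pool or mutant replicate 2 of that day, or with median centring. The day 3 sum was 130136 to 132109 in mutants, against 153055 to 157351 in siblings. The neuronal filament gene inaa fell by 1.68 ± 0.20 on day 5 (adjusted p = 1.14e-04) and snap25b, of the synaptic vesicle fusion machinery, by 0.83 ± 0.09 (adjusted p = 5.8e-05). Of 13 skeletal muscle genes 6 rose on day 5, against 6.49% over all probe sets, with a median of 0.27, a count of 2 to 6 with any 1 array left out and of 2 without both arrays with a day 4 source name. The part of neurons and muscle in the mbpa difference was not tested.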

How the data were processed

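RNA of whole-embryo pools was measured on 10 arrays. The deposited values are MAS5 signals, which are linear intensities, per the submitters' processing notes, and the authors' scaling shows as a trimmed mean (2% off each end) of 1500.4 on every array. No genome build or probe sequence was used. Of 15617 probe sets, 115 controls were left out, and 10795 of the rest have 1 symbol, 135 several and 4572 none in the platform annotation. Signals were taken as log2(signal + 65), 65 being 10% of the median, and the 3876 probe sets in the lowest 25% by mean (under 232) were left out, which kept 11626. limma 3.58.1 in R 4.3.3 fitted the 4 group means in 1 model with a mean-variance trend, and p-values were adjusted over all 11626 probe sets by the Benjamini-Hochberg method. The number of arrays limits the precision, with 6 residual degrees of freedom. The labels call the pools biological replicates. The fit was tested on simulated data.

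Members and lists were chosen with earlier results of these data known. The genes named from each list come from up to 4 per direction and comparison past the threshold, largest change first, with 1 probe set a gene (the highest mean). Not all genes that meet this rule are named, and no muscle or microglia gene is. Every member and the 3 genes nearest to it are named besides. The values of cldnk and mbpb on day 5, and the genes said to be picked later, fall outside this rule. Same-numbered mutant and sibling pools deviated together on day 5 (correlations 0.232, 0.265 and 0.229). Their numbers were taken to pair them, as a hint from the data, in the replicate block alone. The fit behind all other p-values held no pairing term. On day 3 the correlation was −0.05, which gives no such hint. The block nevertheless held the replicate numbers of both days as shared terms. Its day 3 and between-day values thus use numbers that showed no pairing on day 3. The alternatives changed the pseudocount, filter, normalization, array weights, trend, samples, labels, probe set and block.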

Additional observations from a re-analysis of the deposited data

How the results depend on the processing

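With the replicate number as a block, mbpa was −1.35 on day 5 (adjusted p = 2.65e-05). Its difference between the days in siblings passed with the block (0.51, adjusted p = 0.0312) and that in mutants was 0.016. No other call on a member changed. The block gave same-numbered pools of both days a shared term. Across days such pools share only a number, so these between-day values are not a paired comparison. The day 3 count of 1 member was 0 with median centring, without a mean-variance trend and with the strain label of sibling replicate 2 followed, and 0 to 1 with 1 array left out. The count of 0 between the days in siblings was 1 with array weights, with the block and without both arrays with a day 4 source name (there gfap, −0.74, adjusted p = 0.0497), and 0 to 1 with 1 array left out. Values that turned sign were all uncalled. For gfap they were 0.11 averaged over the days and 0.054 on day 3 with that strain label, 0.048 averaged without both day 4 arrays, and, with 1 array left out, −0.22 to 0.042 averaged and −0.14 to 0.38 on day 5. For olig2 averaged over the days they were 0.027 with quantile normalization, 0.030 with median centring and −0.060 to 0.00061 with 1 array left out. Between the days in siblings olig2 was −0.012 with array weights, −0.0030 with the block and −0.038 to 0.079 with 1 array left out. The change of the sox10 mutant difference between the days was 0.00078 with quantile normalization, 0.046 with that strain label, 0.24 without both day 4 arrays and −0.17 to 0.13 with 1 array left out. The causes were not tested. With that strain label 3 oligodendrocyte and Schwann cell genes were lower in mutants averaged over the days, against 7, and over the alternatives the averaged count of 10 neuron genes was 5 to 12 and the day 5 count of 6 muscle genes was 1 to 6. Median centring moved the median of all probe sets by at most 0.065.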

Other observations

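Of 11 tested neural crest and pigment cell genes, the group that shares sox10 with myelinating glia, 1 was called higher and 2 lower in mutants on day 5, against 6.49% higher and 8.15% lower calls over all probe sets. The 1 higher was snai2, a transcription factor gene of migrating crest (0.56 ± 0.14, adjusted p = 0.0172), a call that ended without mutant replicate 1 or 2 or sibling replicate 3. The 2 lower were ret (−0.45 ± 0.12, adjusted p = 0.0242) and tfap2c (−0.41 ± 0.12, adjusted p = 0.0384). Both calls ended without both arrays with a day 4 source name (0.0945 for ret and 0.146 for tfap2c). The tfap2c call was kept in 7 of 22 other settings and ended with the replicate block (0.0534). None passed by limma on day 3. Between the days 2 of the 11 rose and 2 fell in mutants (8.57% and 10.4% over all probe sets). In siblings 2 rose and 2 fell (8.39% and 10.1%). The falls were tfap2c (−1.09 in mutants and −0.49 in siblings), tfap2a (−0.40) in mutants and snai2 (−0.73) in siblings. The tfap2a call ended without both arrays with a day 4 source name (adjusted p = 0.062). Those on snai2 and, in siblings, tfap2c ended without sibling replicate 2 of day 3. Between the days dct, a gene of melanin synthesis, rose by 1.02 ± 0.12 in mutants and by 0.75 ± 0.12 in siblings, the second call ending with the strain label of sibling replicate 2 of day 3 followed (0.0537). crestin, a crest marker of zebrafish, was less secure, with 0.90 ± 0.22 in mutants, a call that ended without mutant replicate 1 of day 3 (0.144), and 0.76 ± 0.22 in siblings, a call kept in 15 of 22 other settings that ended without both arrays with a day 4 source name (0.0535) and without either sibling pool of day 3.

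Of 3 tested motor neuron genes, the other lineage of olig2 progenitors, 1 was called lower in mutants on day 5 and 2 did not pass. The share of lower calls over all probe sets was 8.15%, and the median log2 difference of the 3 genes was −0.03. The 1 lower was isl1a, which fell by 0.78 ± 0.10 (adjusted p = 3.16e-04). Its means were 2197 ± 238 in mutants and 3816 ± 262 in siblings (SD, n = 3 each). Whether the isl1a fall in these whole-embryo pools comes from motor neurons was not tested. Of 6 microglia and macrophage genes none passed between mutants and siblings on either day by limma.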
